A study of Homo sapiens with 12 samples.

Results

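The 10 genes described here were the DNA methyltransferases (DNMT1, DNMT3A, DNMT3B), the maintenance factors UHRF1 and HELLS, the methylcytosine dioxygenases (TET1, TET2, TET3) and the histone methyltransferases EZH2 and EZH1. They were listed by symbol in the platform's annotation table, by a rule that uses no measured value, though earlier results of these data were known when the list was made. All 10 were measured, among 18417 genes in all. The series compared side population (SP) cells, dim for the DNA dye Hoechst because they pump it out, with main population (MP) cells sorted from the same human lines. SP and MP cells were sorted by flow cytometry from 4 anaplastic large cell lymphoma (ALCL) cell lines grown to log phase, and their RNA was amplified and hybridised to 1-colour Affymetrix arrays. SUPM2, DEL and Karpas299 were each represented by 1 SP and 1 MP array, and SUDHL-1 by 3 SP and 3 MP arrays. All groups were untreated apart from the dye, which SP and MP cells received alike. ALCL is a T-cell lymphoma, and these established lines carry a fusion of the ALK kinase gene. No label says that the SUDHL-1 replicates came from separate cultures, so the error behind each p-value is the spread of these arrays and may be technical. Each cell line was also a single line, so differences between lines are differences between these lines.

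Methylation of cytosine in CpG pairs is copied onto each new DNA strand after replication. UHRF1 binds the half-methylated site and recruits DNMT1, the maintenance methyltransferase, while HELLS, a chromatin remodeller, opens nucleosomes for them. DNMT3A and DNMT3B set new methylation, and the TET enzymes oxidise methylcytosine as a step towards its loss. EZH2, and its relative EZH1, which is more prominent in cells that do not divide, are the catalytic subunits of Polycomb repressive complex PRC2, which methylates histone H3 at lysine 27. In ALK-positive ALCL, several T-cell receptor signalling genes have been reported to be silenced by promoter methylation.

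The promoters of 4 genes whose level differed most in SUPM2 are shown first, picked by that level, with that of TET3 for contrast. The promoters of all 10 genes were searched for a short motif that E2F transcription factors bind at replication genes. A part of the motif in the levels was not tested. All 10 genes matched the RefSeq table of promoters (assembly GRCh38.p14), with 22 promoters of 300 bases, from 250 before to 50 after the annotated start. Capitals mark a match to TTTCCCGC, TTTGGCGC, TTTCGCGC or TTTGCCGC on either strand, and each sequence is written 5′ to 3′ on the strand of its gene. The DNMT1 promoter lies at chr19:10194904-10195203 on the minus strand, the first UHRF1 promoter at chr19:4909251-4909550 on the plus strand and the HELLS promoter at chr10:94545538-94545837 on the plus strand. The EZH2 promoter shown lies at chr7:148884242-148884541 on the minus strand and the TET3 promoter at chr2:73984660-73984959 on the plus strand.
DNMT1: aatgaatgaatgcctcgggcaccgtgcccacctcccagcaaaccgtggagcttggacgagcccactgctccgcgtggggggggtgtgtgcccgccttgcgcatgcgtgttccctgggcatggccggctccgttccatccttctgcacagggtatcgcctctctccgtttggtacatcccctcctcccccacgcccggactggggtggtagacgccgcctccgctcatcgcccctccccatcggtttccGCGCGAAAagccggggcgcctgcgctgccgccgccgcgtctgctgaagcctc
UHRF1: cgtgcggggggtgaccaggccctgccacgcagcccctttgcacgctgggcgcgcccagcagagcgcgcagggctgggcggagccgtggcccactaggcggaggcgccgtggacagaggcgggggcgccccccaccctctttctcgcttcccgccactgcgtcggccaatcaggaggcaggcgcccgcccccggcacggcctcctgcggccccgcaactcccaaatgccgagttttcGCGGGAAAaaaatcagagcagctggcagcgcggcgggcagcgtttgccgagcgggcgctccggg
HELLS: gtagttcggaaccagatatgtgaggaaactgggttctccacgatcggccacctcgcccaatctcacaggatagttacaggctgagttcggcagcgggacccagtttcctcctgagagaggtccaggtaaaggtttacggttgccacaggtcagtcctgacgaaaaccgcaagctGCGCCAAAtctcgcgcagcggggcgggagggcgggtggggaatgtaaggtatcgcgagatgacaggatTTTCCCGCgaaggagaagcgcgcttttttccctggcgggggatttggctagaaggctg
EZH2: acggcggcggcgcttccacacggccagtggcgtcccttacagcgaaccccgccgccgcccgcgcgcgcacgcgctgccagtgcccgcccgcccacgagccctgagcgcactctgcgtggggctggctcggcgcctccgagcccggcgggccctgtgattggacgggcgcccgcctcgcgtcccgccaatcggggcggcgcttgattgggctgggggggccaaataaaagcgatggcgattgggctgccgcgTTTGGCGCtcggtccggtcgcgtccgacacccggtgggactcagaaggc
TET3: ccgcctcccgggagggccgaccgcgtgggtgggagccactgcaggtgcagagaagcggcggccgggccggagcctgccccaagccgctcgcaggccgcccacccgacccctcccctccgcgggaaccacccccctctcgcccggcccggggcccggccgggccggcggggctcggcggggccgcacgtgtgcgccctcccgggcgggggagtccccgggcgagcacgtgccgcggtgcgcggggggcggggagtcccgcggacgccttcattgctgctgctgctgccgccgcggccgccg

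In DNMT1 the match (TTTCGCGC read on the opposite strand) began at position -2 and ran across the start. In UHRF1 a match to TTTCCCGC on the opposite strand began at position -14 from the start, and a second UHRF1 promoter held TTTCGCGC at position -160 from its own start. HELLS held 2 matches, beginning at positions -76 and -8, and in EZH2 the match began at base 2 of the transcript. The EZH1 promoter held TTTGCCGC on the opposite strand at position -115, and the EZH1 level in SUPM2 was 0.35 above the mean of DEL and Karpas299. None of the promoters of DNMT3A, DNMT3B, TET1, TET2 or TET3 held any of the 4 motifs. The other EZH2 promoter and the third UHRF1 promoter also held no match. Of the members' promoters, 6 of 22 held a match, belonging to 5 of 10 genes. A match was held by 1164 of all 35116 promoters of this length (3.31%). Among promoters of genes tested on the arrays, 834 of 20109 held one (4.15%), belonging to 784 of 14239 genes (5.51%). The promoters shown held 30 CpG pairs for DNMT1, 36 for UHRF1, 22 for HELLS, 46 for EZH2 and 45 for TET3. The median was 14 over all promoters and 21 over those of genes tested on the arrays. A match is a description of these letters and does not show that a factor binds there.

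The labelled cell type was checked against marker genes. The mean log2 signal of the 9 ALCL markers measured lay at 9.71 to 9.77 in SUPM2, 8.48 to 8.56 in DEL, 9.30 to 9.51 in Karpas299 and 7.87 to 7.96 in SUDHL-1. The B-cell, myeloid and stromal lists averaged between 4.01 and 5.63 on every array, below the arrays' median gene signals. Single genes of these lists stood higher, with PAX5, a B-cell factor, at 6.71 in Karpas299 and CSF1R, a macrophage receptor, at 8.27 in SUPM2, 7.86 in DEL and 7.54 in Karpas299. KRT18, of the stromal and epithelial list, read 7.52 and 7.38 in SUPM2 SP and MP cells, 7.66 and 7.78 in DEL, and 7.38 and 7.23 in Karpas299. ELANE, of the myeloid list, ran from 5.84 to 6.71, above the median gene signal of every array. The markers differed between lines, since CD2, a T-cell surface protein, was 4.79 higher in SUPM2 than in DEL and 4.75 higher than in Karpas299 on the log2 scale (limma, adjusted p = 0.0022 and 0.0030). CD2 read only 3.39 to 4.54 in DEL, Karpas299 and SUDHL-1. CD4, another ALCL marker, read 5.39 and 4.22 in DEL SP and MP cells and 3.45 to 4.15 in SUDHL-1. It read 9.32 and 9.66 in SUPM2 and 9.65 and 9.56 in Karpas299. The SUDHL-1 arrays had median gene signals of 5.25 to 5.37, against 5.76 to 5.80 on the other 6 arrays. This is a shift of -0.46, so differences between SUDHL-1 and another line are given mainly after centring each array on its median. The SUDHL-1 arrays were also deposited apart from the other 6. A difference of any size between SUDHL-1 and another line therefore cannot be told apart from the separate deposit, and centring does not remove this. For that reason levels were compared first between SUPM2, DEL and Karpas299, and those of SUDHL-1 are given beside them.

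The 3 genes that maintain DNA methylation at replication had a lower level in SUPM2 than in DEL and Karpas299. On the log2 scale HELLS differed by -2.68 from DEL and -2.54 from Karpas299, UHRF1 by -1.49 and -2.41, and DNMT1 by -1.46 and -1.71. EZH2 was also lowest in SUPM2 without passing the test, and the other 6 genes did not pass it either. In the test across the 3 lines, 3 of 10 genes passed an adjusted p of 0.05 (limma, Benjamini-Hochberg adjustment over all genes), against 7.5% of all genes. With 1 SP and 1 MP array a line and a shared SP term in the fit, the error in this test is how far the SP minus MP difference varied between the lines.

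**Figure D1:**
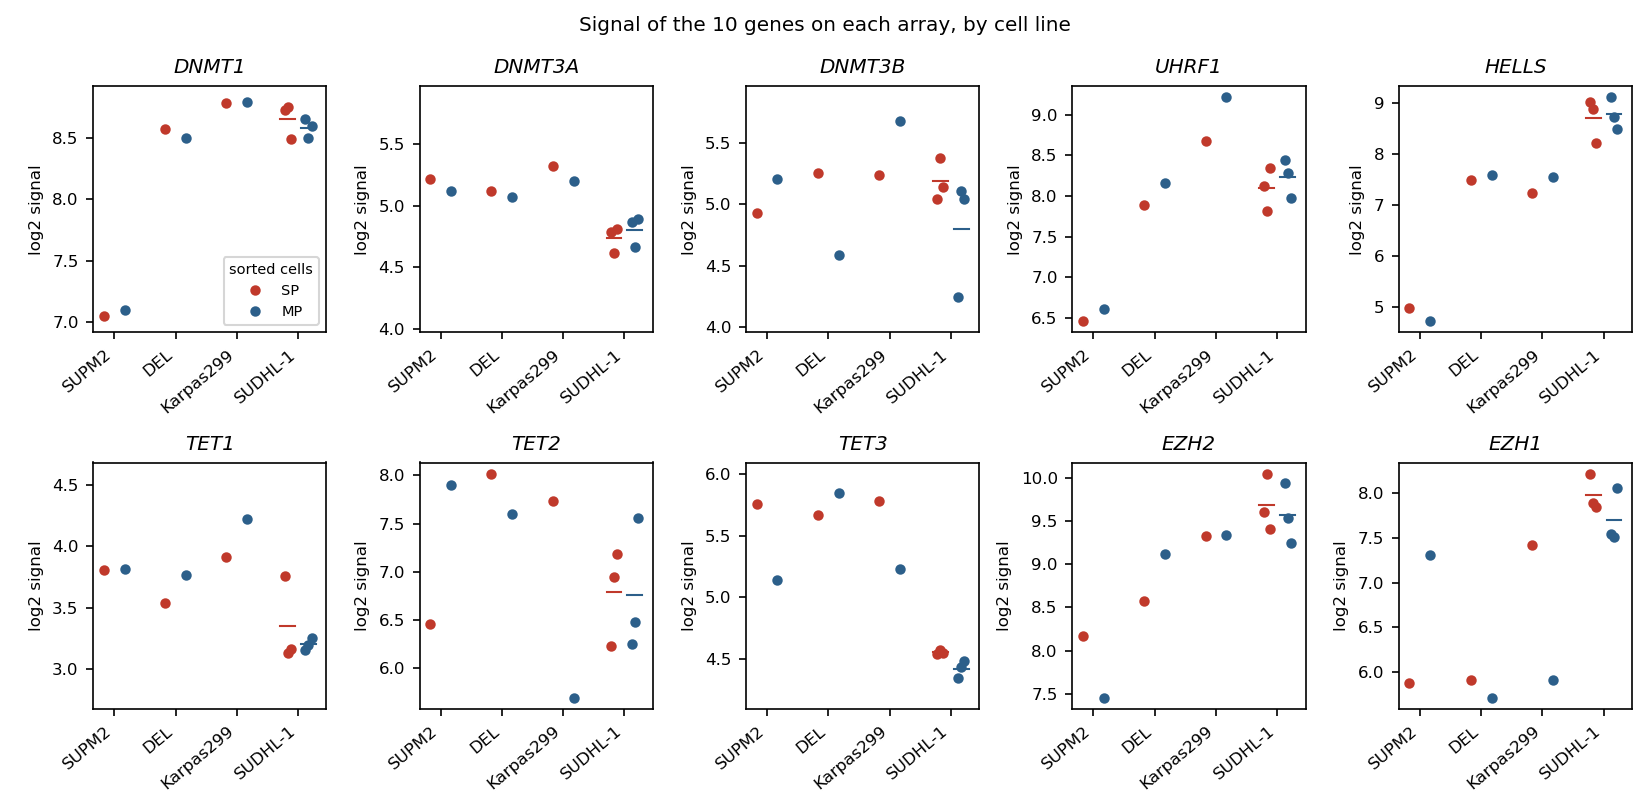
Log2 signal of the 10 genes (vertical axis, a separate scale for each gene) on each of 12 arrays, by cell line, with SP arrays in red to the left of MP arrays in blue. Each point is 1 array and the short lines are means of 3 SUDHL-1 arrays. In DNMT1, UHRF1 and HELLS the 2 SUPM2 arrays lie below all 10 others.

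DNMT1 (chr19:10133346-10194953 in GRCh38.p14) had log2 signals of 7.05 and 7.10 in SUPM2 SP and MP cells, 8.57 and 8.50 in DEL, and 8.78 and 8.79 in Karpas299. In SUDHL-1 it read 8.72, 8.75 and 8.49 on the SP arrays and 8.65, 8.49 and 8.59 on the MP arrays. The 2 SUPM2 arrays lay below every other array by more than 1 log2 unit, and the other lines ran from 8.49 to 8.79 as deposited. SUPM2 differed in DNMT1 from DEL by -1.46 (SE 0.18, adjusted p = 0.0196) and from Karpas299 by -1.71 (SE 0.18, adjusted p = 0.0115), with n = 2 arrays a line in limma's fit. DEL lay below Karpas299 without overlap, but the difference of -0.25 did not pass the test (adjusted p = 0.623).

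UHRF1 (chr19:4903080-4962154), which guides DNMT1 to replicated DNA, had log2 signals of 6.46 and 6.61 in SUPM2 SP and MP cells, 7.89 and 8.16 in DEL, and 8.68 and 9.22 in Karpas299. On the SUDHL-1 arrays it read 8.12, 7.81 and 8.35 in SP cells and 8.45, 8.28 and 7.98 in MP cells. SUPM2 was the lowest line, and as deposited both Karpas299 arrays were above all others. After centring, UHRF1 was 0.33 higher in Karpas299 than in SUDHL-1 and did not pass (limma, adjusted p = 0.155). SUPM2 differed from DEL by -1.49 (SE 0.19, adjusted p = 0.0235) and from Karpas299 by -2.41 (SE 0.19, adjusted p = 0.00734, limma). A second probe set of UHRF1 was dim, at 5.23 in SUPM2, 5.02 in DEL and 4.85 in Karpas299, and was not lower in SUPM2. With the 2 probe sets averaged, the test across the 3 lines gave an adjusted p of 0.0790 and the difference of SUPM2 from DEL was -0.64 (limma, adjusted p = 0.166).

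HELLS (chr10:94545788-94613905), the remodeller, had the widest range of the 10 genes. Its log2 signal was 4.98 and 4.72 in SUPM2 SP and MP cells, 7.49 and 7.58 in DEL, and 7.22 and 7.55 in Karpas299. In SUDHL-1 it was 9.01, 8.88 and 8.20 on the SP arrays and 9.10, 8.72 and 8.49 on the MP arrays, all above the other lines although the SUDHL-1 arrays are dimmer on the whole. SUPM2 differed from DEL by -2.68 (SE 0.22, adjusted p = 0.00733) and from Karpas299 by -2.54 (SE 0.22, adjusted p = 0.00790, limma). DEL and Karpas299 overlapped. Of all genes, 0.386% lay further below the mean of DEL and Karpas299 in SUPM2 than HELLS did, 1.02% further than UHRF1 and 1.97% further than DNMT1.

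EZH2 (chr7:148807383-148884291), the main PRC2 methyltransferase of dividing cells, had log2 signals of 8.16 and 7.46 in SUPM2 SP and MP cells, 8.58 and 9.11 in DEL, and 9.33 and 9.34 in Karpas299. It read 9.60, 10.05 and 9.41 in SUDHL-1 SP cells and 9.93, 9.53 and 9.25 in MP cells. The SUPM2 arrays were the 2 lowest, but SP and MP lay further apart there than in DNMT1. The test across the 3 lines gave an adjusted p of 0.0887, and the differences were -1.03 from DEL (SE 0.32, adjusted p = 0.159) and -1.52 from Karpas299 (SE 0.32, adjusted p = 0.0568, limma). With SUDHL-1 in the fit, which adds arrays to the estimate of error, the difference from Karpas299 had an adjusted p of 0.0103 and that from DEL 0.0716.

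**Figure D2:**
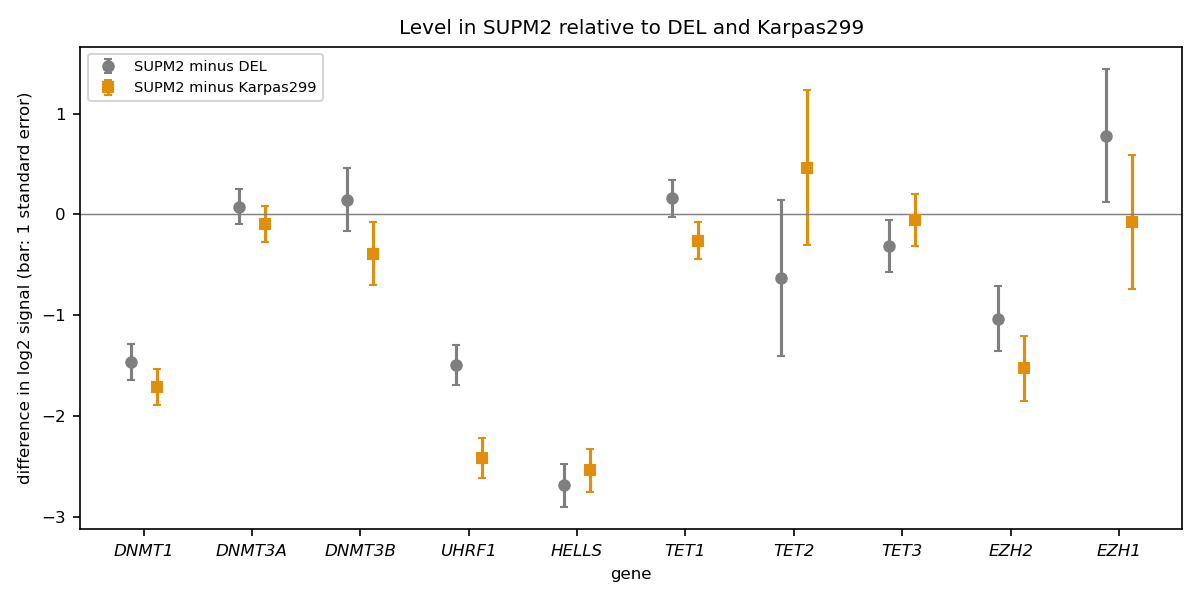
Difference in log2 signal (vertical axis) of SUPM2 from DEL (grey circles) and from Karpas299 (orange squares) for the 10 genes, in the fit of these 3 lines, with bars of 1 standard error. DNMT1, UHRF1, HELLS and EZH2 lie below 0 in both comparisons. The bars of TET2 and EZH1 are wide because their SP minus MP differences varied between the lines.

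Among all genes, 3.25% were called lower in SUPM2 than in DEL and 4.29% lower than in Karpas299, against 3 of 10 members in each comparison. SUPM2 had the lowest level of the 3 lines in 5 of 10 members, and in 28.9% of all genes. The fifth gene was TET3, whose differences of -0.31 and -0.06 did not pass the test.

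The de novo enzymes lay below the median gene signal of their arrays or close to it. DNMT3A (chr2:25227874-25342590) averaged a log2 signal of 5.17 in SUPM2, 5.09 in DEL, 5.26 in Karpas299 and 4.77 in SUDHL-1, and its 12 arrays ran from 4.62 to 5.33. DNMT3B (chr20:32762385-32809356) averaged 5.07, 4.92, 5.45 and 4.99 in the same order of lines, over a range of 4.25 to 5.68. Neither passed the test between SUPM2, DEL and Karpas299 (limma, adjusted p = 0.801 for DNMT3A and 0.537 for DNMT3B). The level of DNMT3A relative to SUDHL-1 turned with the scaling, from 0.40 higher in SUPM2 as deposited to -0.08 after each array was centred on its median.

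Of the dioxygenases, TET1 (chr10:68560337-68694487) was in the lowest 25% of gene signals on all 12 arrays, at 3.14 to 4.22, so its values are close to background. TET3 (chr2:73983631-74135498) averaged 5.45 in SUPM2, 5.76 in DEL and 5.51 in Karpas299 and did not pass the test between them (limma, adjusted p = 0.699). In SUDHL-1 it averaged 4.49, and after centring it was higher than in SUDHL-1 by 0.49 in SUPM2, 0.81 in DEL and 0.57 in Karpas299 (limma, adjusted p = 0.0336, 0.00294 and 0.0185). TET2 (chr4:105145875-105279803) was as far apart between SP and MP cells of SUPM2 and Karpas299 as between lines. Its log2 signals were 6.46 and 7.90 in SUPM2 SP and MP cells, 8.02 and 7.60 in DEL, and 7.73 and 5.70 in Karpas299. On the SUDHL-1 arrays it read 6.23, 6.95 and 7.18 in SP cells and 6.25, 6.48 and 7.56 in MP cells. As deposited these were all below both DEL arrays and overlapped with the other lines. After centring, TET2 was 0.57 higher in DEL than in SUDHL-1 and did not pass (limma, adjusted p = 0.432). With its 2 probe sets averaged, TET2 passed the test between the 4 lines as deposited (limma, adjusted p = 0.0290), and its second probe set averaged 6.43 in SUPM2, 6.56 in DEL and 6.52 in Karpas299, against 5.11 in SUDHL-1.

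EZH1 (chr17:42700275-42745040) had log2 signals of 5.88 and 7.31 in SUPM2 SP and MP cells, 5.91 and 5.71 in DEL, and 7.42 and 5.92 in Karpas299. In SUDHL-1 it was 8.22, 7.89 and 7.84 on the SP arrays and 7.55, 7.51 and 8.06 on the MP arrays, above every array of the other lines. After centring, EZH1 differed from SUDHL-1 by -1.72 in SUPM2, -2.49 in DEL and -1.62 in Karpas299 (limma, adjusted p = 0.00684, 0.000934 and 0.0105). As deposited, its test between the 4 lines passed (adjusted p = 0.00505) but not with SUDHL-1 averaged to 1 SP and 1 MP value (adjusted p = 0.122). DNMT1 differed from SUDHL-1 after centring by -2.01 in SUPM2 (adjusted p = 1.66e-06), -0.54 in DEL (adjusted p = 0.00985) and -0.28 in Karpas299 (adjusted p = 0.131). HELLS differed from SUDHL-1 in the same direction, by -4.36 in SUPM2, -1.66 in DEL and -1.80 in Karpas299 after centring (adjusted p = 6.13e-07, 0.000484 and 0.000283). EZH2 differed from SUDHL-1 after centring by -2.29 in SUPM2 (limma, adjusted p = 8.06e-05), -1.24 in DEL (adjusted p = 0.00493) and -0.74 in Karpas299 (adjusted p = 0.0536). UHRF1 differed by -2.10 in SUPM2 (adjusted p = 6.65e-06), -0.60 in DEL (adjusted p = 0.0197) and 0.33 in Karpas299 (limma, adjusted p = 0.155). These differences from SUDHL-1, centred or not, cannot be told apart from its separate deposit. In the fit of all 4 lines as deposited, 8 of 10 members passed the test between lines, against 61.6% of all genes. That background moves with the shift of the SUDHL-1 arrays, since SUPM2 was called higher than SUDHL-1 in 7836 genes and lower in 2741 as deposited, and higher in 2919 and lower in 4830 after centring.

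The genes that maintain methylation are used in S phase, and the level of other S-phase genes was likewise lowest in SUPM2. Of 20 genes that E2F activates for DNA replication, 19 were measured. SUPM2 had the lowest level of the 3 lines in all 19, and in 28.9% of all genes. Of the 19, 14 passed the test across the 3 lines (7.5% of all genes). At an adjusted p under 0.05 (limma), 14 were called lower in SUPM2 than in DEL (3.25% of all genes). Against Karpas299, 17 were called lower (4.29% of all genes). The median differences were -2.11 from DEL and -2.53 from Karpas299, against 0.09 and 0.05 over all genes. CCNE2, a cyclin that starts S phase, averaged a log2 signal of 4.80 in SUPM2, 8.10 in DEL and 7.58 in Karpas299, a difference of -3.30 (adjusted p = 0.00305) and -2.78 (adjusted p = 0.00482, limma). The replicative helicase subunits MCM7 and MCM3 were also lower in SUPM2, with differences of -2.20 and -1.96 from DEL and -2.92 and -2.66 from Karpas299 (adjusted p from 0.00380 to 0.00950). The mean of the 19 genes lay at 6.42 to 6.77 on the SUPM2 arrays, 8.58 to 9.10 in DEL, 8.99 to 9.41 in Karpas299 and 8.81 to 9.37 in SUDHL-1. The part of this list's level in the lower DNMT1, UHRF1 and HELLS was not tested. In these bulk samples, fewer cells in S phase and less RNA per cell cannot be told apart. Of the 16 S-phase genes with a promoter in the table, 9 held a match to the motifs, in a list defined by activation through E2F.

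**Figure D3:**
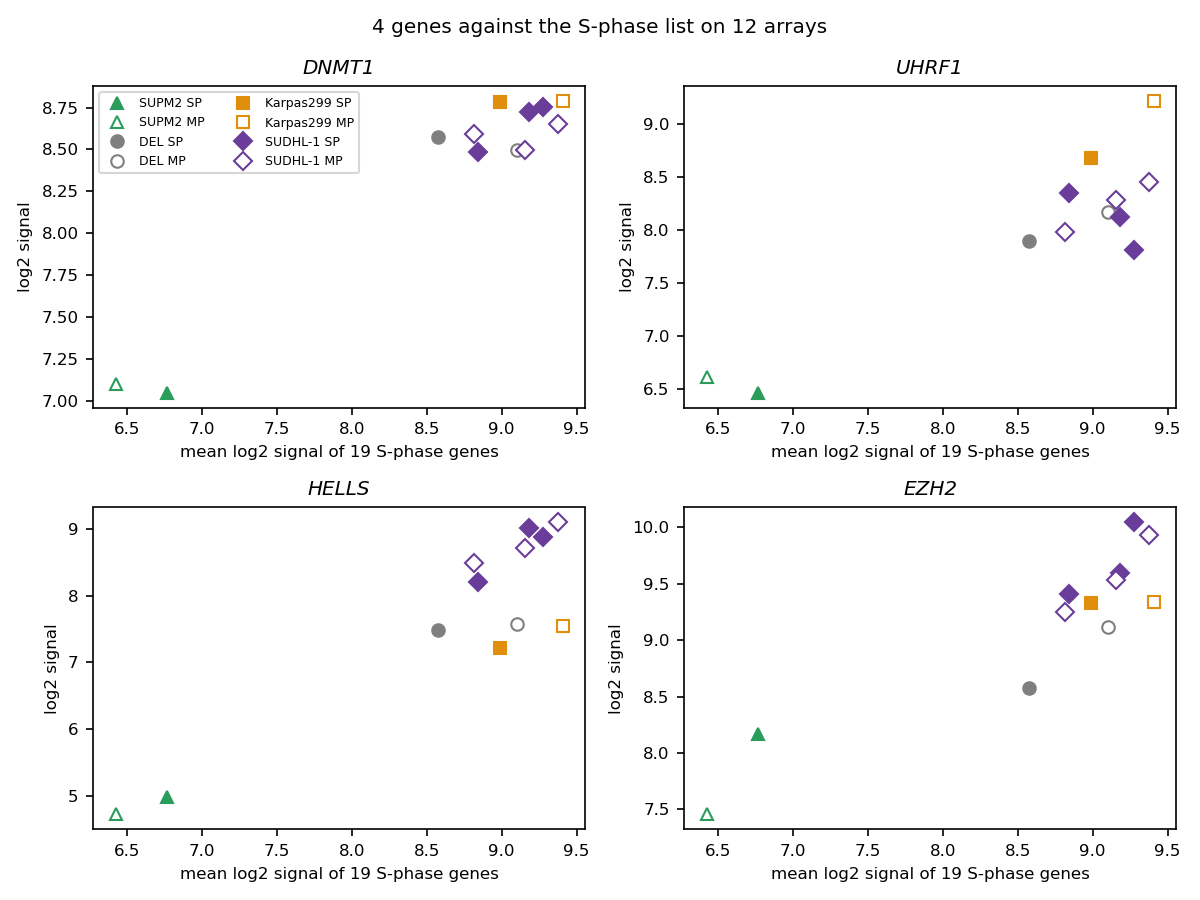
Log2 signal of DNMT1, UHRF1, HELLS and EZH2 (vertical axes) against the mean log2 signal of 19 S-phase genes (horizontal axes) on 12 arrays, with filled symbols for SP and open symbols for MP cells. The 2 SUPM2 arrays, at 6.42 and 6.77 on the horizontal axis, stand apart from the other 10, at 8.58 to 9.41, so no correlation is given.

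The partners of these enzymes included further genes with a lower level in SUPM2. Of 9 cofactors of the DNA methyltransferases, SUPM2 was the lowest of the 3 lines in 8 (28.9% of all genes), and 3 passed the test (7.5% of all genes). CDCA7, which recruits HELLS to chromatin, had log2 signals of 4.88 and 4.79 in SUPM2 SP and MP cells, 7.45 and 8.21 in DEL, and 8.88 and 8.79 in Karpas299. Its difference was -2.99 from DEL (SE 0.27, adjusted p = 0.00950) and -4.01 from Karpas299 (SE 0.27, adjusted p = 0.00482, limma). The SUPM2 arrays did not overlap with those of the other lines. PCNA, the sliding clamp that binds DNMT1 at the replication fork, was lower in SUPM2, by -1.16 from DEL and -1.29 from Karpas299 (adjusted p = 0.0363 and 0.0238). CDCA7L, a relative of CDCA7, differed by -1.94 from Karpas299 (adjusted p = 0.0308), and its difference from DEL was -1.23 (adjusted p = 0.104). Its test across the 3 lines, with an adjusted p of 0.0478, gave 0.0558 when the columns were quantile normalized again.

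Of the 9 PRC2 partners of EZH1 and EZH2, 3 passed the test between the 3 lines (7.5% of all genes). SUZ12, a core subunit, had log2 signals of 7.77 and 8.01 in SUPM2 SP and MP cells, 9.43 and 9.27 in DEL, and 9.74 and 9.50 in Karpas299. RBBP4, the histone-binding subunit shared with other complexes, read 8.01 and 8.41 in SUPM2, 9.82 and 9.64 in DEL, and 10.35 and 10.20 in Karpas299. Both were lower in SUPM2, SUZ12 with differences of -1.46 from DEL and -1.73 from Karpas299 (adjusted p = 0.0281 and 0.0157) and RBBP4 with -1.52 and -2.07 (adjusted p = 0.0316 and 0.0126, limma). AEBP2, an accessory subunit, had another pattern, at 8.27 in SUPM2, 8.44 in DEL and 6.23 in Karpas299, and SUPM2 was 2.04 above Karpas299 (adjusted p = 0.00790). Over the 9 partners the median difference was -0.45 from DEL and -0.65 from Karpas299, against 0.09 and 0.05 over all genes.

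In the other chromatin lists the genes that passed the test between SUPM2, DEL and Karpas299 stand beside 7.5% of all genes. In the PRC1 list 1 of 13 passed, PCGF2, which averaged a log2 signal of 7.17 in SUPM2, 8.14 in DEL and 6.15 in Karpas299. None of 7 methyl-CpG readers and neither of the 2 H3K27 demethylases passed. KDM6B, 1 of the 2, came near (adjusted p = 0.0575, or 0.0483 with the columns quantile normalized again) and was 1.03 higher in SUPM2 than in Karpas299 (adjusted p = 0.0382, or 0.0644 with a robust trended variance, limma). In base excision repair, which completes active demethylation, 1 of 6 passed. This was APEX1, an endonuclease, which was lower in SUPM2, with differences of -1.43 from DEL and -1.08 from Karpas299 (adjusted p = 0.0244 and 0.0379). Of 10 genes that supply methyl donors or 2-oxoglutarate, the TET co-substrate, 1 passed. IDH1, which makes 2-oxoglutarate, averaged 9.26 in SUPM2, 7.89 in DEL and 8.11 in Karpas299, higher in SUPM2 than in DEL by 1.38 and than in Karpas299 by 1.16 (adjusted p = 0.0350 and 0.0413, limma). With a robust trended variance the test of IDH1 across the lines gave an adjusted p of 0.0501. Of 10 genes for H3K9 methylation 1 passed, SETDB2, at 7.71 in SUPM2, 5.83 in DEL and 6.30 in Karpas299. It was 1.88 higher in SUPM2 than in DEL (adjusted p = 0.0332), and its difference from Karpas299 was 1.41 (adjusted p = 0.0509, limma).

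In SUPM2 the lists of genes described as methylation targets had medians on opposite sides of 0. The median difference from DEL and Karpas299 was 0.23 and 0.17 for germline genes, against 0.09 and 0.05 over all genes. It was -0.21 and -1.36 for T-cell genes reported as silenced in ALCL. Promoter methylation keeps germline genes silent in somatic cells, and 15 such genes were measured. Of these, 10 lay in the lowest 25% of signals on all 12 arrays, as did 2943 of all 18417 genes. In the test between the 3 lines 0 of 15 passed (limma), against 7.5% of all genes. The 3 of smallest p were TEX101, SYCP3 and MAGEA1, of which MAGEA1 averaged 5.23 in SUPM2, 4.74 in DEL and 4.81 in Karpas299 (adjusted p = 0.391). Of 7 T-cell genes reported as silenced by methylation in ALK-positive ALCL, 4 passed (7.5% of all genes). In SUPM2, 4 of the 7 were called lower than in Karpas299 (4.29% of all genes) and 1 lower than in DEL (3.25%). None was called higher in SUPM2 (limma). LCP2, an adaptor of T-cell receptor signalling, had log2 signals of 4.83 and 4.74 in SUPM2 SP and MP cells, 6.16 and 4.95 in DEL, and 9.07 and 9.02 in Karpas299. ZAP70, the receptor's kinase, read 5.33 and 6.17 in SUPM2, 5.24 and 4.83 in DEL, and 7.55 and 8.02 in Karpas299. Both were highest in Karpas299. LAT, a membrane adaptor, was lower in SUPM2, at 5.59 and 5.73, than in DEL, at 8.13 and 7.85, and Karpas299, at 7.72 and 7.02. STAT5A, a transcription factor named here after its values were seen, read 4.90 and 5.11 in SUPM2, 4.99 and 5.43 in DEL and 6.27 and 6.45 in Karpas299.

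By likeness of level over the 12 arrays (Pearson r, among genes above the lowest 25% of mean signal), the genes most like HELLS were UCHL5 (r = 0.994), CTPS1 (r = 0.992) and CHAF1B (r = 0.988), a subunit of the chromatin assembly factor. Those most like UHRF1 were ORC1 (r = 0.949), an origin recognition subunit, IFITM2 (r = 0.943) and MCM5 (r = 0.942), a helicase subunit. For DNMT1 they were RPS4Y1 (r = 0.987), a Y-linked ribosomal protein gene, HIRIP3 (r = 0.985) and PA2G4 (r = 0.979), and for EZH2 they were MIS18A (r = 0.979), CDK4 (r = 0.977) and KIF15 (r = 0.972). These are descriptions, since the arrays share 4 lines and the points of 1 line lie together.

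In SUDHL-1, the line with replicates, no member passed the test between SP and MP cells. The question of the series was how SP cells differ from MP cells, and 0 of 18417 genes passed the adjusted threshold in this line (limma), while 577 genes (3.13%) and none of the members had an unadjusted p under 0.05. DNMT1 averaged 8.65 ± 0.15 in SP cells and 8.58 ± 0.08 in MP cells (SD, n = 3 each), a difference of 0.08 with a 95% interval of -0.26 to 0.42. EZH2 averaged 9.68 ± 0.33 in SP cells and 9.57 ± 0.35 in MP cells, with an interval of -0.44 to 0.67 around 0.11. HELLS averaged 8.70 ± 0.43 and 8.77 ± 0.31, and UHRF1 8.09 ± 0.27 and 8.24 ± 0.24, in SP and MP cells. The interval of TET2 was the widest, at -0.87 to 0.92. These intervals are for each gene alone and are not limits of detection. With 3 arrays a group, larger differences could also miss the adjusted threshold. The SP arrays lay all above the MP arrays in 1 member, TET3, at 4.54, 4.57 and 4.55 in SP cells and 4.34, 4.43 and 4.49 in MP cells, while 3.74% of all genes showed this.

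Over the 4 lines, with the SUDHL-1 replicates averaged, 0 members and 0 genes passed the adjusted threshold (limma, n = 4 lines), and 904 genes (4.91%) had an unadjusted p under 0.05. UHRF1 came nearest. Its SP signal was below the MP signal in 4 of 4 lines, with differences of -0.15 in SUPM2, -0.27 in DEL, -0.54 in Karpas299 and -0.14 in SUDHL-1 on the log2 scale. The mean difference was -0.28 ± 0.19 (SD, n = 4 lines in limma's fit), with a 95% interval of -0.56 to 0.01 and an adjusted p of 0.918. SP below MP in 4 of 4 lines occurred in 5.65% of all genes, in 1 of 10 members and in 5 of 19 genes of the S-phase list. Its dimmer probe set differed by 0.03 in SUPM2, -0.01 in DEL, -0.50 in Karpas299 and 0.02 in SUDHL-1.

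**Figure D4:**
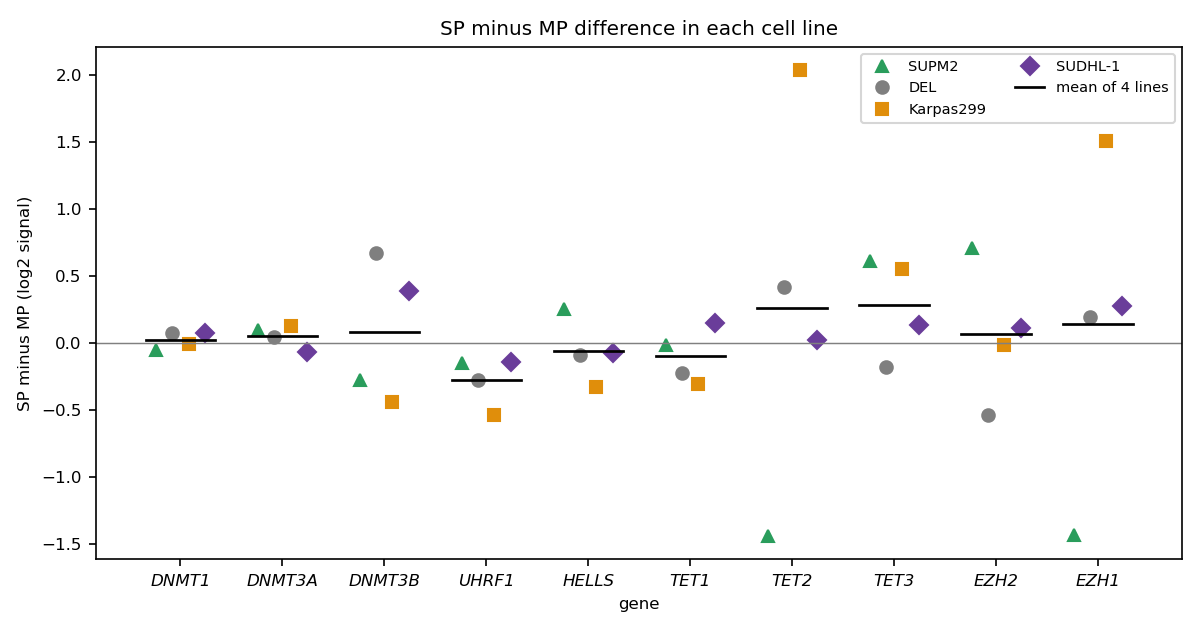
SP minus MP difference in log2 signal (vertical axis) for the 10 genes in each of 4 cell lines, with the mean of the lines as a black bar. DNMT1 and DNMT3A lie between -0.07 and 0.13 in every line, while TET2 and EZH1 lie far above 0 in Karpas299 and far below it in SUPM2.

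DNMT1 and DNMT3A were the steadiest. DNMT1 differed by -0.05 in SUPM2, 0.08 in DEL, -0.01 in Karpas299 and 0.08 in SUDHL-1, and DNMT3A by 0.10, 0.05, 0.13 and -0.07. The 95% interval of the mean difference was -0.22 to 0.27 for DNMT1 and -0.20 to 0.30 for DNMT3A. DNMT3B differed by -0.28 in SUPM2, 0.67 in DEL, -0.44 in Karpas299 and 0.39 in SUDHL-1, so 2 lines lay on each side of 0. EZH2 differed by 0.71 in SUPM2 and by -0.54 in DEL. HELLS lay between -0.33 and 0.26, and TET3 was 0.61 in SUPM2 and 0.56 in Karpas299 with -0.18 in DEL. Their means over lines did not pass the test (adjusted p from 0.918 to 0.986 over the 10 genes). The difference between the SUDHL-1 effect and that of the other lines was also tested, and 0 genes and 0 members passed (limma), with 3.59% of genes at an unadjusted p under 0.05 and members' adjusted p all at 1.00.

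TET2 and EZH1 differed in opposite directions in Karpas299 and SUPM2. TET2 was 2.03 higher in SP than in MP cells of Karpas299, and the difference was -1.44 in SUPM2, 0.42 in DEL and 0.02 in SUDHL-1. EZH1 differed by 1.51 in Karpas299 and by -1.43 in SUPM2, with 0.20 in DEL and 0.28 in SUDHL-1. A fit with the SP minus MP effect of each line, added after these values were seen, took its error from the SUDHL-1 replicates. The Karpas299 effect minus the SUPM2 effect was 2.94 for EZH1 (SE 0.49, unadjusted p = 0.000446, adjusted p = 0.182, limma) and 3.47 for TET2 (SE 0.94, unadjusted p = 0.00692, adjusted p = 0.429). No gene passed the adjusted threshold in that contrast, in which 1393 genes had an unadjusted p under 0.05. With a robust trended variance 21 genes passed, and the adjusted p was 0.208 for EZH1 and 0.388 for TET2. Each of these effects rests on 1 SP and 1 MP array per line. The second probe set of TET2 had the same directions with smaller sizes, 0.47 in Karpas299, -0.30 in SUPM2, 0.26 in DEL and 0.18 in SUDHL-1.

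By likeness of the deviations from each line's mean over the 12 arrays, the genes most like TET2 were MEF2D (r = 0.976), KLF7 (r = 0.970) and LZTR1 (r = 0.949), and those most like EZH1 were STRN4 (r = 0.956), CCNT1 (r = 0.950) and ATXN2 (r = 0.943). TET2 and EZH1 had r = 0.819 with each other. These values rest mainly on the arrays of Karpas299 and SUPM2, where both genes were far apart between SP and MP cells. For EZH2 the gene most like it was FBXO5 (r = 0.950), an inhibitor of the anaphase-promoting complex that peaks from S phase on.

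No gene of the partner and target lists passed the adjusted threshold between SP and MP cells in SUDHL-1 or over the 4 lines. Over the 4 lines, 10234 of all 18417 genes had a higher mean in SP cells. In the PRC2 list 4 of 9 genes did, and its smallest p was that of PHF1, an accessory subunit, at -0.41 (adjusted p = 0.918). Among the DNA methyltransferase cofactors 3 of 9 were higher, and ZBTB24, which drives CDCA7, had a mean difference of -0.35 (adjusted p = 0.918). TDG, the glycosylase that removes oxidised methylcytosine, had 0.57 (adjusted p = 0.918). MAT2A, which makes the methyl donor, had -0.38 (adjusted p = 0.918). In the S-phase list the median SP minus MP difference was -0.01 in SUDHL-1, 0.22 in SUPM2, -0.47 in DEL and -0.48 in Karpas299. The list had 12 of 19 genes higher in SP cells of SUPM2, 2 of 19 in DEL and 0 of 19 in Karpas299. Of all 18417 genes, 10649 were higher in SP cells of SUPM2, 9707 in DEL and 9062 in Karpas299. The list's count in SUPM2 was close to that share. In this list 5 of 19 genes were lower in SP cells in 4 of 4 lines, as UHRF1 was, against 5.65% of all genes. CCNE1, a cyclin, had the smallest p of the list over the 4 lines, at -0.55 (limma, adjusted p = 0.918). UHRF1 differed by -0.27 in DEL and -0.54 in Karpas299, the lines where this list was lower in SP cells, and by -0.15 in SUPM2, where it was not. EZH2 had the sign of the list's median in SUPM2 and DEL and was at -0.01 in Karpas299. The part of the S-phase list in these differences was not tested.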

How the data were processed

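The values are log2 signals that the authors deposited, made by RMA (per the submitters' processing notes, without a version). RMA corrects background, normalizes arrays and summarises probes. The sources used here do not say whether all 12 arrays were normalized as 1 set. Of 33297 probe sets, 19460 had 1 gene symbol in the platform's annotation, 1754 several and 12083 none, and 19429 of the named ones matched RefSeq by Entrez identifier. For 769 genes with several probe sets the brightest stood for the gene, and 0 value columns were left out. TET2 and UHRF1 had 2 probe sets, the other 8 members 1.

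Levels were fitted with limma 3.58.1 (R 4.3.3, lmFit and eBayes), between SUPM2, DEL and Karpas299 on 6 arrays (2 residual degrees of freedom) and between the 4 lines on 12 (7). SP minus MP was fitted in SUDHL-1 on 6 arrays (4), over 1 difference per line (3), and with an interaction on 12 arrays (6). P-values are two-sided and adjusted by Benjamini-Hochberg over 18417 genes at a threshold of 0.05. Arrays carry no read depth, so their number limits the precision. The SP minus MP fits, the interaction and the SUPM2 minus DEL contrast were run on simulated data, with independent noise at the spread of the SUDHL-1 arrays. The tests across 3 and 4 lines and the Karpas299 minus SUPM2 effect were not, so the simulation does not bear on them.

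The named genes are the 10 members, up to 3 genes of smallest p per gene list, and up to 3 genes most like each member. The members and lists were chosen with earlier results of these data known. Alternatives left out dim genes (lowest 25%), normalized the columns again by quantiles, centred arrays, averaged probe sets, used a robust trended variance or a replicate block, and left out each SUDHL-1 array or line.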

Additional observations from a re-analysis of the deposited data

Results flagged for a closer look

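The DNMT1 level in SUPM2 (7.07 on the log2 scale, mean of 2 arrays) stood apart from those of DEL (8.54), Karpas299 (8.79) and SUDHL-1 (8.62). Its gap to the next line, as a share of the range over the 4 lines, was above Dixon's 95% critical value for 4 values. After each array was centred on its median, an alternative chosen after seeing the data, the share was 0.732, below the critical value (0.853 as deposited). As deposited, this was the only one of 20 quantities tested (the level and the SP minus MP difference of the 10 genes over the 4 lines) to be so, and chance gives about 1 in 20.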

How the results depend on the processing

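The SP minus MP counts (0 genes and 0 members in SUDHL-1, over the 4 lines and in the interaction), and the levels of DNMT1 and HELLS in SUPM2 relative to DEL and Karpas299, kept direction and side of the threshold under every alternative run. The fit of 3 lines called 1268 to 1395 genes and 2 or 3 members, and that of 4 lines 8635 to 11555 genes and 6 to 9 members. With the replicate block, 0 genes passed in SUDHL-1. Same-numbered SP and MP arrays did not deviate together (r = -0.0037, -0.077 and -0.13). The labels do not say whether the numbers pair them. This check cannot exclude it, since a shared effect may be small beside the spread of the arrays. The main change was a count of 21 genes in place of 0 for the Karpas299 minus SUPM2 effect with a robust trended variance, where the cause was not tested.

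No SP minus MP value that changed sign had passed a test. With the columns quantile normalized again, TET2 in SUDHL-1 came to -0.0055, DNMT1 and DNMT3A in the Karpas299 minus SUPM2 effect to -0.033 and -0.0073, and the DNMT3A level of SUPM2 minus SUDHL-1, called higher as deposited, to -0.025 (-0.075 with centred arrays). With centred arrays the HELLS interaction came to 0.0076. With 1 SUDHL-1 array left out, the difference in SUDHL-1 ranged from -0.23 to 0.17 for HELLS, -0.052 to 0.26 for TET1, -0.23 to 0.42 for TET2 and -0.068 to 0.29 for EZH2. The interaction ranged from -0.17 to 0.23 for HELLS, -0.57 to 0.081 for TET2 and -0.12 to 0.24 for EZH2. With 1 array or line left out, the mean over lines ranged from -0.11 to 0.26 for DNMT3B, -0.16 to 0.032 for HELLS, -0.33 to 0.83 for TET2, -0.15 to 0.27 for EZH2 and -0.32 to 0.66 for EZH1. TET2 and EZH1 were lowest without Karpas299 and were highest without SUPM2. TET1 was too close to background to be compared.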
